A study of Homo sapiens with 6 samples.

Results

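The mRNA of 39 genes that encode enzymes of the tricarboxylic acid (TCA) cycle and of mitochondrial fatty acid oxidation was compared between parental and Osimertinib-adapted H1975 cells. The genes were taken by symbol, and each of the 39 had a row among the 27216 rows of the expression table and passed the filter on low values. Of these, 19 encode enzymes of the TCA cycle and of pyruvate entry, and 20 encode enzymes of fatty acid oxidation. The pathways are described apart.

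H1975 is a human non-small cell lung cancer (NSCLC) line with a mutant epidermal growth factor receptor (EGFR), and Osimertinib (Osi) is an inhibitor of that mutant receptor. The series held 6 RNA samples of this line, 3 labelled with 0 h and 3 labelled with 72 h of Osi at 1000 nM, and both groups carried the genotype label WT. The former are called parental and the latter adapted. The columns of the parental samples were named for DMSO, the solvent control, whereas their labels name Osi for 0 h, so whether and how long these cells were kept in DMSO is not known. In the adapted samples apoptotic cells had been rinsed away with cold PBS before extraction, so the RNA came from the cells that remained after treatment. The labels also name RNase R, an enzyme that digests linear RNA, and circRNA sequencing, while the methods of the study name total RNA, and which of these applies to this table is not known. The culture medium named in the labels (DMEM) also differed from that in the methods. The study states in general that its data came from independent experiments with technical replicates. It does not say whether the RNA replicates of a group were separate cultures. The p-values therefore measure the spread between these samples, which may be technical. In bulk RNA, fewer cells of a type and less RNA per cell cannot be told apart.

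The TCA cycle oxidises acetyl-CoA in the mitochondrial matrix and hands its electrons to the respiratory chain as NADH and through succinate. Pyruvate enters it as acetyl-CoA through the pyruvate dehydrogenase complex or as oxaloacetate through pyruvate carboxylase. Long-chain fatty acids reach the matrix as acylcarnitines, are shortened there by repeated rounds of dehydrogenation, hydration, a further dehydrogenation and thiolysis, and pass their first electrons to the chain through the electron transfer flavoprotein.

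The values were on a log2 scale that the authors did not name. When 1 was subtracted from 2 to the power of a value, the result had 6 decimals in most rows, which does not identify the unit. FPKM, a length-scaled unit, was assumed, and the values themselves are written as log2(FPKM + 1). A fold change on this scale understates the change of a low gene. Per sample, FPKM added up to 375342 to 387753. Depth was unknown, so no error other than the replicate spread is given. The epithelial markers EPCAM, KRT8, KRT18, KRT19 and CDH1 lay between 7.08 and 9.88 log2(FPKM + 1) in all 6 samples. Among 11 markers of leukocytes, fibroblasts and endothelium, 7 stayed under 0.4 in every sample, and CD68, COL1A1, PECAM1 and CDH5 did not. Of these, CD68 and PECAM1 were lower in every adapted sample (CD68 from 3.96 to 4.93 against 6.22 to 6.27) and COL1A1 and CDH5 were higher, and their part in the results was not tested. Adapted replicate 1 correlated with the other adapted replicates at 0.977 and 0.978, against 0.992 between those, and the parental replicates correlated with each other at 0.995 to 0.996 (Pearson's r across genes, which are not independent replicates).

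A property of the deposited values touched many of these enzymes. In 147 of the 27216 rows (0.540%), all 3 values of a single group lay off the 6-decimal grid while the 3 values of the other group lay on it. Constants from 0.01 to 0.99 in steps of 0.01 were tried. For each of these rows exactly 1 of them, subtracted on the log2 scale, returned the values to the grid. It was 0.66 in the adapted samples of 87 rows, 0.65 in the adapted samples of 35 rows and 0.2 in the parental samples of 25 rows. An added 0.66 multiplies FPKM + 1 by 1.58, and an added 0.2 multiplies it by 1.15. Rows of this kind made up 1.11% of the rows tested, 21.1% of the TCA genes (4 of 19) and 65% of the fatty acid oxidation genes (13 of 20). Of these 17 genes, 15 carried 0.66 in the adapted samples, and HADHA and ECI1 carried 0.2 in the parental samples. How the constants came into the table was not tested. The fold changes, counts and ratios of the 39 genes are therefore given as deposited and, where a constant applies, also with it subtracted, without assuming that subtraction gives back the original measurement.

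For the TCA cycle, 8 of 19 genes rose and 4 fell in adapted cells with the values as deposited. The test was limma on the log2 values of the 12656 rows with a mean of at least 1, with Benjamini-Hochberg adjusted p under 0.05. Over all rows tested, 56.9% were past this threshold, 30.7% higher and 26.2% lower. The genes past it were 63.2% of the TCA genes, against that background, and the median log2 fold change of the 19 genes was -0.01 against 0.03 for all rows tested. With the constants subtracted, 5 rose and 4 fell, 47.4% were past the threshold, and the background was 56.3%, with 30.3% higher and 26% lower. The 15 genes on the grid held 4 that rose and 4 that fell. In 13 of 19 genes the parental and adapted values did not overlap, both as deposited and after subtraction. The shares of all rows tested were 66.3% and 66%.

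The entry of pyruvate was divided. PDHA1, the catalytic alpha subunit of pyruvate dehydrogenase, measured 4.24, 4.32 and 4.23 log2(FPKM + 1) in parental cells and 5.005, 5.02 and 5.17 in adapted cells, and its adapted values were off the grid. The groups lay apart as deposited, with a log2 fold change of 0.81 ± 0.07 (SE; limma, adjusted p = 8.66e-05). After subtraction of 0.66 the log2 fold change was 0.15 (adjusted p = 0.111), which was not past the threshold. The PDHA1 groups still did not overlap. PDHB, the beta subunit of the same enzyme, was on the grid and rose from 4.91, 4.83 and 4.54 to 5.37, 5.25 and 5.30, with all adapted values above all parental ones. Its log2 fold change was 0.54 ± 0.10 (SE; limma, adjusted p = 0.00285). PDHX, which anchors dihydrolipoamide dehydrogenase to the core of the complex, rose by 0.45 ± 0.06 on the log2 scale (SE; limma, adjusted p = 6.81e-04). DLAT, the acetyltransferase core, and DLD, the dihydrolipoamide dehydrogenase shared with the 2-oxoglutarate complex, had log2 fold changes of -0.10 and -0.13 and overlapped between groups.

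Pyruvate carboxylase fell further than any other of the 39 genes. PC, which makes oxaloacetate from pyruvate, measured 2.78, 2.74 and 2.77 in parental cells and 1.48, 1.25 and 0.999 in adapted cells, on the grid in all samples. The adapted values lay well below the parental ones and spread more widely among themselves. Its log2 fold change was -1.52 ± 0.12 (SE; limma, adjusted p = 7.34e-05), and the mean level went from 5.79 to 1.39 FPKM, 4.17 times lower. In parental cells PC was already the lowest of the 19 TCA genes.

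CS and IDH2, at the first steps of the cycle, were on the grid and not past the threshold. CS, citrate synthase, which joins acetyl-CoA to oxaloacetate, measured 6.49, 6.53 and 6.46 in parental and 6.34, 6.38 and 6.74 in adapted cells. A single adapted sample lay above the parental values and the other 2 lay below them. The log2 fold change was -0.01 ± 0.11 (SE; limma, adjusted p = 0.965), with a 95% interval from -0.26 to 0.25. IDH2, the NADP-dependent mitochondrial isocitrate dehydrogenase, had a log2 fold change of -0.11 (adjusted p = 0.148) without overlap between groups, and was past the threshold when no filter on low values was applied (adjusted p = 0.0216).

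The NAD-dependent isocitrate dehydrogenase is built of 3 kinds of subunit, which did not move together. IDH3A, the catalytic subunit, rose on the grid (log2 fold change 0.33; limma, adjusted p = 0.0113), and IDH3B, a further subunit, had a log2 fold change of -0.01 (adjusted p = 0.923). IDH3G, the regulatory subunit, measured 6.07, 5.72 and 5.89 in parental and 6.80, 6.74 and 6.75 in adapted cells, off the grid in the latter. Its adapted values stood clear of the parental ones as deposited, with a log2 fold change of 0.87 ± 0.09 (SE; limma, adjusted p = 2.06e-04). With 0.66 subtracted the adapted values were 6.14, 6.08 and 6.09, just above the parental ones, and the log2 fold change was 0.21 (adjusted p = 0.0808).

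Of the 2-oxoglutarate dehydrogenase complex, only the first enzyme passed the test. OGDH, which decarboxylates 2-oxoglutarate, measured 5.17, 5.15 and 5.09 in parental and 5.84, 5.86 and 6.08 in adapted cells. These adapted values were off the grid, and the log2 fold change was 0.79 ± 0.08 (SE; limma, adjusted p = 1.58e-04) as deposited and 0.13 (adjusted p = 0.193) after subtraction. The OGDH groups did not overlap on either scale. DLST, its succinyltransferase core, lay within 5.39 and 5.49 in all 6 samples, and the log2 fold change was 0.03 (adjusted p = 0.652).

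Succinyl-CoA synthetase has a shared alpha subunit, SUCLG1, and either a GDP-forming beta subunit, SUCLG2, or an ADP-forming one, SUCLA2. SUCLG1 measured 4.91, 4.94 and 4.79 in parental and 6.04, 6.06 and 6.09 in adapted cells, and as deposited it was the TCA gene that rose most. SUCLG1 was off the grid and was also the only off-grid TCA gene that still passed after subtraction, with a log2 fold change of 1.18 ± 0.06 (SE; limma, adjusted p = 1.02e-05) as deposited and of 0.52 ± 0.06 (SE; adjusted p = 3.54e-04) without the constant. After subtraction PDHB, on the grid at 0.54, ranked above it. SUCLG2 fell on the grid, from 4.98, 4.997 and 4.96 to 4.55, 4.54 and 4.38 (log2 fold change -0.49 ± 0.07, SE; limma, adjusted p = 6.87e-04). The SUCLG2 values of the groups were separate, while SUCLA2 overlapped and had a log2 fold change of -0.02 (adjusted p = 0.831).

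The genes of fumarase and of the malate dehydrogenases held opposite changes, all on the grid. FH, fumarase, fell from 5.65, 5.68 and 5.64 to 5.44, 5.39 and 5.19, by a log2 fold change of -0.32 ± 0.08 (SE; limma, adjusted p = 0.00950). MDH1, the cytosolic malate dehydrogenase, fell from 6.40, 6.36 and 6.31 to 6.11, 6.003 and 5.84 (log2 fold change -0.37 ± 0.08, SE; limma, adjusted p = 0.00542). In both genes every adapted sample was below every parental one. MDH2, the mitochondrial malate dehydrogenase, rose slightly, from 6.74, 6.68 and 6.77 to 6.95, 6.98 and 6.97 (log2 fold change 0.23 ± 0.06, SE; limma, adjusted p = 0.00989), and was not past the threshold without parental replicate 2 (adjusted p = 0.0585).

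**Figure D1:**
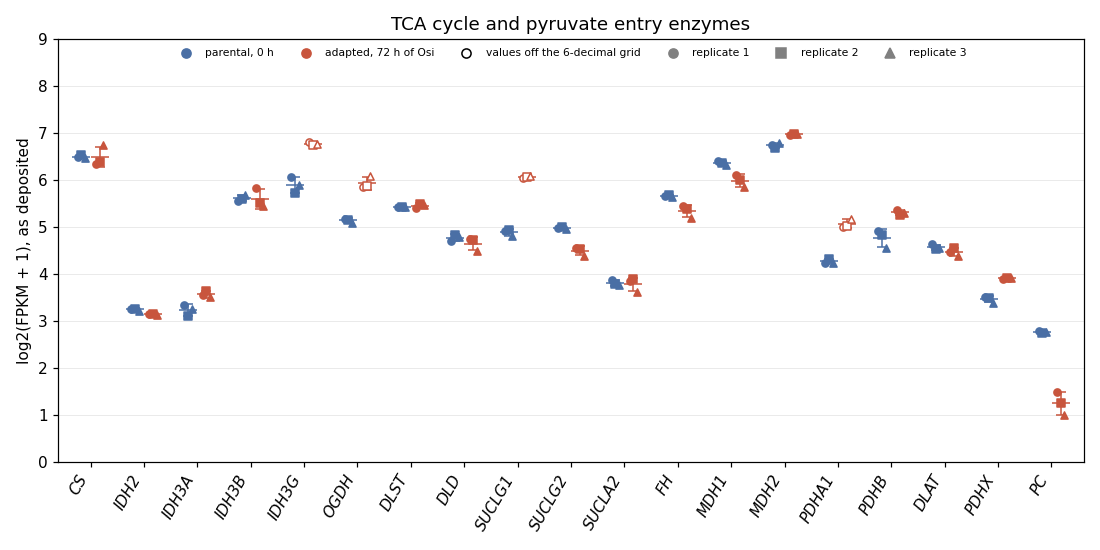
The 19 genes of the TCA cycle and pyruvate entry (x axis) with log2(FPKM + 1) as deposited (y axis) in each of 3 parental (blue) and 3 adapted (red) samples, where horizontal lines and bars give the mean ± SD and open symbols are values off the 6-decimal grid. IDH3G, OGDH, SUCLG1 and PDHA1 carry open symbols in the adapted samples, and PC lies lowest in both groups, from 2.74 to 2.78 in parental and 0.999 to 1.48 in adapted cells.

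Of the 20 fatty acid oxidation genes, 12 rose and 3 fell with the values as deposited (75% past the threshold, against 56.9% of all rows tested), with a median log2 fold change of 0.73. With the constants subtracted, 8 rose and 1 fell (45% past, against 56.3%), and the median was 0.18. The 7 genes on the grid held 1 that rose, HADHB, 1 that fell, ACADS, and 5 that were not past the threshold, with a median of -0.09. The 13 genes off the grid were all past the threshold as deposited, 11 higher and 2 lower, with a median of 0.96, and after subtraction 7 rose, none fell and the median was 0.30. In 15 of 20 genes the groups did not overlap as deposited and in 11 after subtraction, with 66.3% and 66% of all rows tested as the backgrounds.

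The carnitine shuttle held the greatest rise among the 39 genes. CPT1A, the carnitine palmitoyltransferase of the outer membrane and the rate-controlling step of long-chain fatty acid entry, measured 1.18, 1.06 and 1.198 in parental and 3.46, 3.74 and 3.80 in adapted cells. Its adapted values were off the grid and far above the parental ones. As deposited the log2 fold change was 2.52 ± 0.11 (SE; limma, adjusted p = 4.77e-06), a mean level of 1.22 FPKM against 11.8 FPKM. With 0.66 subtracted the adapted values were 2.80, 3.08 and 3.14, still above all parental values, and the log2 fold change was 1.86 ± 0.11 (SE; limma, adjusted p = 1.83e-05), a ratio of mean FPKM of 5.81.

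SLC25A20, the carrier that exchanges acylcarnitine for carnitine across the inner membrane, measured 1.74, 1.68 and 1.71 in parental and 3.06, 3.29 and 3.13 in adapted cells, off the grid in the latter. The groups did not overlap with or without the constant. Its log2 fold change was 1.45 ± 0.08 (SE; limma, adjusted p = 1.51e-05) as deposited and 0.79 ± 0.08 (SE; adjusted p = 2.40e-04) after subtraction. CPT2, which reforms acyl-CoA on the matrix side, was on the grid and measured 4.30, 4.29 and 4.27 against 3.98, 4.15 and 4.27. The CPT2 groups overlapped through 1 adapted sample, and its log2 fold change was -0.15 ± 0.08 (SE; limma, adjusted p = 0.150), or -0.22 without adapted replicate 3 (adjusted p = 0.0433).

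The acyl-CoA dehydrogenases, which start each round of oxidation and differ in the chain length they accept, fell into separate patterns. ACADVL, for very long chains, measured 7.39, 7.21 and 7.15 in parental and 8.18, 8.22 and 8.20 in adapted cells, off the grid in the latter, and was the most abundant of the 20 genes in both groups. The adapted values were higher throughout, with a log2 fold change of 0.95 ± 0.08 (SE; limma, adjusted p = 7.34e-05) as deposited and 0.29 ± 0.08 (SE; adjusted p = 0.0147) after subtraction. ACADM, for medium chains, was on the grid with a log2 fold change of 0.16 (adjusted p = 0.192). ACADS, for short chains, was on the grid and fell, from 3.67, 3.79 and 3.61 to 3.43, 3.45 and 3.32. Its log2 fold change was -0.29 ± 0.08 (SE; limma, adjusted p = 0.0135), and it was not past the threshold without parental replicate 2 (adjusted p = 0.0628). ACADSB, which takes short branched chains, measured 1.90, 1.79 and 1.83 in parental and 2.72, 2.36 and 2.59 in adapted cells, off the grid in the latter. Although its groups lay apart as deposited (log2 fold change 0.72 ± 0.11, SE; limma, adjusted p = 9.98e-04), they overlapped after subtraction and the log2 fold change was then 0.06 (adjusted p = 0.666).

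The mitochondrial trifunctional protein carries out the remaining steps for long chains. HADHA encodes its alpha subunit, with the hydratase and hydroxyacyl-CoA dehydrogenase activities, and HADHB its beta subunit, with the thiolase. In RefSeq (GRCh38.p14) their transcripts start 307 bases apart on chromosome 2 and run in opposite directions, HADHA on the minus strand from 26244632 and HADHB on the plus strand from 26244939. The window shared by both promoters, chr2:26244689-26244882 on the plus strand, is shown because the subunits moved in opposite directions as deposited although they share it. It is printed without capitals, since none of the 5 motifs searched, which are spelled out below, was found in it.
HADHA and HADHB shared window: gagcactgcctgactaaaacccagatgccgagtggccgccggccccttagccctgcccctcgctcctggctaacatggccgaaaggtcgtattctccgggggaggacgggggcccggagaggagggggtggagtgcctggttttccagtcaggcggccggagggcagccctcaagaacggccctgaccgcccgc

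HADHA measured 6.47, 6.52 and 6.46 in parental and 6.19, 6.25 and 6.21 in adapted cells, and here the parental values were the ones off the grid, by 0.2. As deposited every adapted value was below every parental one, and the log2 fold change was -0.26 ± 0.05 (SE; limma, adjusted p = 0.00481). With 0.2 subtracted from the parental values it was -0.06 (adjusted p = 0.339), and the adapted values were still all below the parental ones. HADHB, on the grid in all samples, rose from 5.19, 5.24 and 5.20 to 5.62, 5.71 and 5.67 without overlap. Its log2 fold change was 0.46 ± 0.05 (SE; limma, adjusted p = 4.03e-04). The beta subunit carried no constant, whereas the alpha subunit was past the threshold only as deposited.

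Among the enzymes that complete the round for shorter chains, no call remained after subtraction of the constants. HADH, the medium- and short-chain hydroxyacyl-CoA dehydrogenase, was on the grid with a log2 fold change of -0.09 (adjusted p = 0.249). ECHS1, the short-chain enoyl-CoA hydratase, measured 5.65, 5.54 and 5.13 in parental and 6.33, 6.32 and 6.26 in adapted cells, off the grid in the latter. Its groups lay apart as deposited (log2 fold change 0.86 ± 0.13, SE; limma, adjusted p = 0.00112) and overlapped after subtraction (log2 fold change 0.20, adjusted p = 0.218). HSD17B10, a dehydrogenase of short and branched acyl-CoA that is also a subunit of mitochondrial RNase P, measured 5.47, 5.52 and 5.49 in parental and 6.27, 6.27 and 6.19 in adapted cells. The HSD17B10 log2 fold change was 0.75 ± 0.06 (SE; limma, adjusted p = 5.00e-05) as deposited and 0.09 (adjusted p = 0.214) after subtraction of 0.66. Its groups did not overlap on either scale. ACAA2, the thiolase of medium chains, measured 2.99, 3.21 and 3.08 in parental and 3.82, 4.18 and 4.18 in adapted cells. As deposited all adapted ACAA2 values were higher (log2 fold change 0.96 ± 0.12, SE; limma, adjusted p = 3.96e-04), and after subtraction the groups overlapped (log2 fold change 0.30, adjusted p = 0.0585).

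Unsaturated fatty acids need auxiliary enzymes that move or remove double bonds. ECI1, an enoyl-CoA isomerase, measured 5.26, 5.29 and 5.25 in parental and 5.16, 4.97 and 4.999 in adapted cells, and its parental values were off the grid by 0.2. The adapted values were lower as deposited (log2 fold change -0.23 ± 0.07, SE; limma, adjusted p = 0.0233), but the call was lost on leaving out any replicate other than adapted replicate 1 (adjusted p from 0.0575 to 0.0873). With the constant subtracted the groups overlapped and the log2 fold change was -0.03 (adjusted p = 0.749). ECI2, a related isomerase, measured 4.03, 4.10 and 4.16 against 4.19, 3.68 and 3.65, so adapted replicate 1 alone lay above the parental values and the other 2 below. Its log2 fold change was -0.25 (limma, adjusted p = 0.167), and without adapted replicate 1 it was -0.43 (adjusted p = 6.54e-04). DECR1, the 2,4-dienoyl-CoA reductase, overlapped between groups with a log2 fold change of -0.02 (adjusted p = 0.876).

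The electron transfer flavoprotein and its oxidoreductase rose together, and all 3 genes were off the grid and remained past the threshold after subtraction. ETFA, the alpha subunit, measured 5.18, 4.97 and 4.76 in parental and 6.68, 6.40 and 6.30 in adapted cells. ETFB, the beta subunit, measured 5.15, 4.996 and 4.89 in parental and 6.31, 6.43 and 6.36 in adapted cells. In neither gene did the groups overlap, with or without the constant. The log2 fold change of ETFA was 1.49 ± 0.13 (SE; limma, adjusted p = 1.04e-04) as deposited and 0.83 ± 0.13 (SE; adjusted p = 0.00156) after subtraction, and that of ETFB was 1.36 ± 0.08 (SE; adjusted p = 1.77e-05) and 0.70 ± 0.08 (SE; adjusted p = 3.28e-04). ETFDH, the oxidoreductase that passes the electrons to ubiquinone, measured 2.25, 2.29 and 2.30 in parental and 3.04, 3.38 and 3.50 in adapted cells, with a log2 fold change of 1.03 ± 0.12 (SE; limma, adjusted p = 3.38e-04) as deposited and 0.37 ± 0.12 (SE; adjusted p = 0.0343) after subtraction. BDH2, a cytosolic dehydrogenase of hydroxybutyrate listed with this pathway, measured 3.91, 4.04 and 4.12 in parental and 5.21, 5.62 and 5.61 in adapted cells. BDH2 stayed without overlap and past the threshold on both scales, at a log2 fold change of 1.45 ± 0.12 (SE; limma, adjusted p = 7.99e-05) as deposited and 0.79 ± 0.12 (SE; adjusted p = 0.00128) after subtraction.

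Promoters of ETFA and ETFB are printed because the partner subunits rose side by side and both windows hold a pair of CCAAT boxes. Such a pair was also found for CS and DLD, which were not past the threshold, for FH and PC, which fell, and for HSD17B10, so it does not set the rising genes apart. Each is a RefSeq window of 300 bases around a transcript start, on the minus strand of GRCh38.p14, ETFA at chr15:76311420-76311719 and ETFB, at the second of its 2 starts, at chr19:51366339-51366638. The window at the other ETFB start held no CCAAT box. Capitals mark CCAAT, or ATTGG where the box reads on the other strand, which begin 92 and 75 bases before the ETFA start and 141 and 95 bases before the ETFB start.
ETFA: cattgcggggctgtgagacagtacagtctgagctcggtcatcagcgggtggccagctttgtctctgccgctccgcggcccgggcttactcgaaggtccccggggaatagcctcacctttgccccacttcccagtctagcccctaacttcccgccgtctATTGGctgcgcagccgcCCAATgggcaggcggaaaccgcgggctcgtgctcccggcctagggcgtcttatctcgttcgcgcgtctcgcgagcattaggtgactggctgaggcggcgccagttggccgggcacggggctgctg
ETFB: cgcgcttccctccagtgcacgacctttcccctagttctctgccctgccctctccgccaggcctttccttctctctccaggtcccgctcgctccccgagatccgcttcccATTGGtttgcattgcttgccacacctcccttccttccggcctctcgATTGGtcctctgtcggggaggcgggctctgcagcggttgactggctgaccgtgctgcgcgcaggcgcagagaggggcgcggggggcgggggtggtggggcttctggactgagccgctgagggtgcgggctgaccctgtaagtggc

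RefSeq promoters were found for 36 of the 39 genes (46 windows), and not for OGDH, DECR1 and ETFDH. CCAAT was searched on both strands and was present for 15 of these 36 genes and in 34.6% of all 35116 promoters. A gene was counted when any of its windows held a match, whereas the percentages count single windows. The counts and percentages are therefore not directly comparable. The E-box CACGTG was present for PDHB alone, against 7.26% of all promoters. The estrogen-related receptor element TNAAGGTCA (0.951% of all promoters), the NRF1 site, GCGCA followed by TGCGC (1.24%), and a direct repeat of AGGTCA spaced by 1 base (0.0228%) were found for none of the 36. These matches are letters in a window and say nothing about binding.

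**Figure D2:**
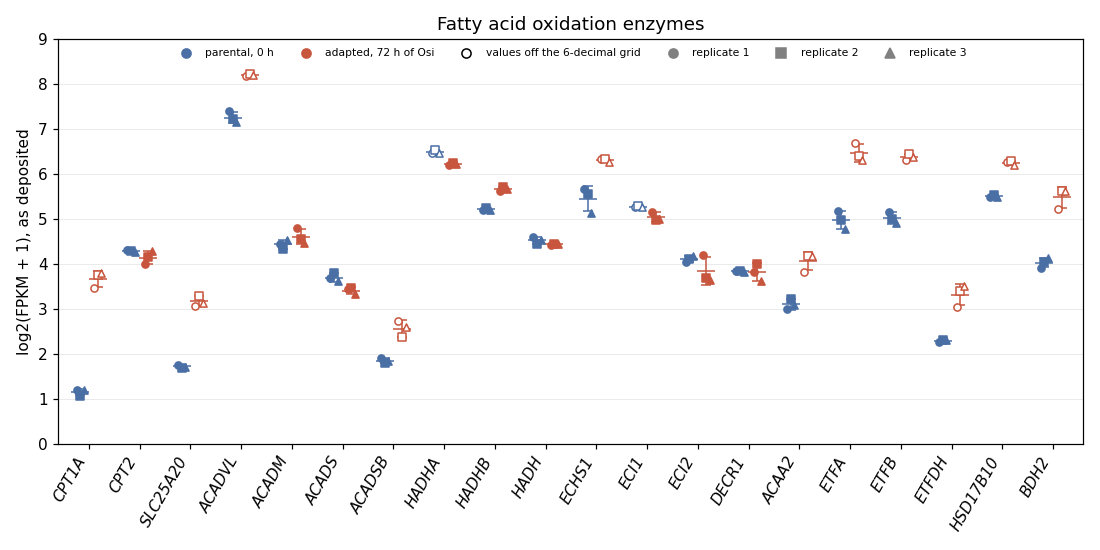
The 20 fatty acid oxidation genes (x axis) with log2(FPKM + 1) as deposited (y axis) in each of 3 parental (blue) and 3 adapted (red) samples, where horizontal lines and bars give the mean ± SD and open symbols are values off the 6-decimal grid. Open symbols mark the adapted values of 11 genes and the parental values of HADHA and ECI1, and CPT1A goes from the lowest gene of the pathway, at 1.06 to 1.198, to between 3.46 and 3.80.

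Over both pathways the calls differed with the constants. All 17 off-grid genes were past the threshold as deposited, 8 of them (SUCLG1, CPT1A, SLC25A20, ACADVL, ETFA, ETFB, ETFDH and BDH2) were also past it after subtraction, and 9 were not. None changed direction. The log2 fold changes of the 15 genes with 0.66 in the adapted samples ran from 0.72 to 2.52 as deposited and from 0.06 to 1.86 after subtraction. Among the 22 genes on the grid, 5 rose (IDH3A, MDH2, PDHB, PDHX and HADHB) and 5 fell (SUCLG2, FH, MDH1, PC and ACADS), with 30.7% higher and 26.2% lower as the shares of all rows tested.

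**Figure D3:**
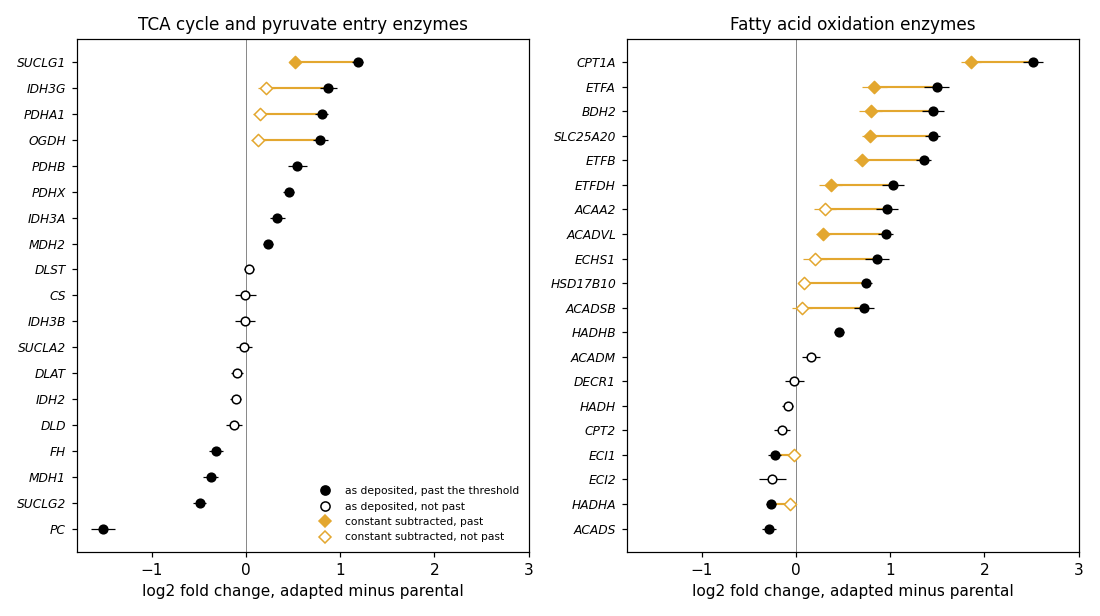
Log2 fold change, adapted minus parental, of the 39 genes by pathway, with bars of ± 1 SE from limma, as deposited (circles) and, for off-grid genes, with the constant subtracted (diamonds), filled where past the threshold. CPT1A lies farthest to the right at 2.52 as deposited and 1.86 after subtraction, and PC farthest to the left at -1.52.

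The summed level of each pathway was also followed, with FPKM added over its genes. Fatty acid oxidation summed to 624, 599 and 571 FPKM in parental and 960, 974 and 946 FPKM in adapted samples, a ratio of means of 1.61. After subtraction the sums were 607, 582 and 554 against 698, 706 and 685, a ratio of 1.198. The TCA genes summed to 719, 701 and 697 FPKM in parental and 830, 816 and 826 FPKM in adapted samples, a ratio of 1.17, and after subtraction to 732, 719 and 724 in adapted samples, a ratio of 1.03. Both sums were higher in every adapted sample as deposited. After subtraction this held for fatty acid oxidation, whereas the TCA sums of the groups overlapped.

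The order of the levels was wide. In parental cells the TCA genes ran from 5.79 FPKM (PC) to 105 FPKM (MDH2), with a median of 28.5 FPKM, and the fatty acid oxidation genes ran from 1.22 FPKM (CPT1A) to 152 FPKM (ACADVL), with a median of 19.6 FPKM. CPT1A stood at the 4.64th percentile of all rows tested in parental cells. PC went from the 34.3rd percentile in parental to the 5.29th in adapted cells. Adapted replicate 1 was the adapted sample closest to the parental mean in 18 of the 27 genes past the threshold as deposited (66.7%), compared with 54.8% of the 7202 rows past it.

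Subunits and partner enzymes were compared within each sample as the log2 ratio of their FPKM values, for 11 pairs. With 3 samples against 3 the exact two-sided permutation test cannot give a p under 0.1, and after Benjamini-Hochberg adjustment the smallest was 0.157 over the 11 pairs as deposited and 0.16 over the 8 pairs with a constant subtracted. The ratio of MDH2 to MDH1, both on the grid, went from a log2 of 0.38 ± 0.08 (SD, n = 3) to 0.99 ± 0.15 (SD, n = 3) (exact permutation p = 0.1). The ratio of SUCLA2 to SUCLG2, also on the grid, went from -1.24 ± 0.06 (SD, n = 3) to -0.75 ± 0.05 (SD, n = 3) (exact permutation p = 0.1). In both pairs every adapted ratio was above every parental one.

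The ratio of HADHA to HADHB was the tightest among replicates, at 1.30 ± 0.01 (SD, n = 3) in parental and 0.56 ± 0.02 (SD, n = 3) in adapted cells (exact permutation p = 0.1), and with the constant removed the parental ratio was 1.09 ± 0.01 (SD, n = 3). It therefore went down by 0.73 as deposited and by 0.53 without the constant, outside the replicate spread on either scale. CPT1A to CPT2 went from -3.93 ± 0.15 (SD, n = 3) to -0.50 ± 0.06 (SD, n = 3), and to -1.24 ± 0.07 (SD, n = 3) without the constant (exact permutation p = 0.1 for each). ETFA to ETFB differed by 0.14 as deposited and after subtraction (exact permutation p = 0.6 for each). ECI1 to ECI2 differed by 0.04 as deposited (exact permutation p = 0.8) and by 0.25 without the constant (exact permutation p = 0.3), with overlapping samples on either scale. The direction turned with the constant in 3 pairs, with exact permutation p of 0.1 to 0.2. PDHA1 to PDHB differed by 0.28 as deposited and -0.41 without the constant, PDHA1 to PDHX by 0.35 and -0.34, and IDH3A to IDH3G by -0.52 and 0.15. OGDH to DLST differed by 0.77 and 0.10, and IDH3A to IDH3B, which carry no constant, by 0.38 (exact permutation p = 0.2).

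**Figure D4:**
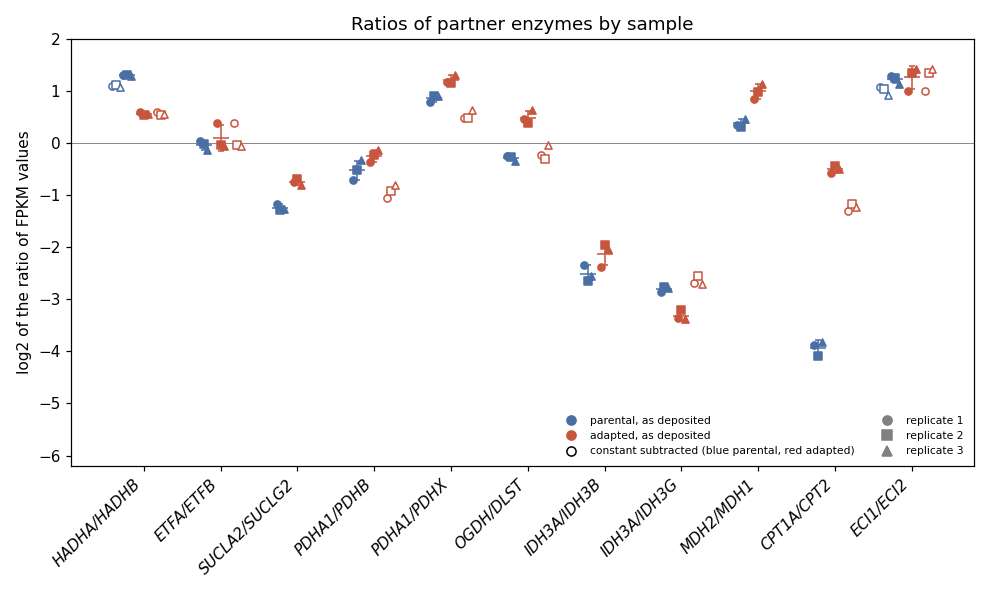
Log2 ratio of the FPKM values of 11 partner pairs (x axis) in each parental (blue) and adapted (red) sample, with the mean ± SD, and open symbols for ratios after subtraction of the constant. CPT1A/CPT2 shows the widest gap between groups, from -3.93 to -0.50 as deposited, and MDH2/MDH1 and SUCLA2/SUCLG2 are separate without any constant.

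Further genes of these pathways, which were not among the 39, were read from 8 lists. The counts of each list stand against 30.7% of all rows tested that rose and 26.2% that fell as deposited. In the control of pyruvate entry, 2 of 8 genes rose and 4 fell. PDK1, a kinase that inactivates pyruvate dehydrogenase, fell from 3.91, 3.81 and 3.89 to 1.64, 1.41 and 1.34 (log2 fold change -2.41 ± 0.09, SE; limma, adjusted p = 3.51e-06), and PDK3, a kinase of the same family, fell by a log2 fold change of -0.87. PDK2 rose by 0.34, and MPC1, a subunit of the mitochondrial pyruvate carrier, rose by 1.499 as deposited and by 0.84 without its constant of 0.66. MPC2, the other subunit of that carrier, fell on the grid by a log2 fold change of -0.28, and PDP2, also in this list, by -0.39. The fall of PDK1 was larger than that of PC and on the grid in every sample. PDP1, a phosphatase that reverses the kinases, was not analysed here.

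Of 17 other TCA and anaplerotic genes, 8 rose and 1 fell (30.7% and 26.2% over all rows tested), and 5, among them SDHB, SDHC, IDH1 and GOT2, carried the constant of 0.66. After subtraction 6 rose and 1 fell. SDHB, the iron-sulfur subunit of succinate dehydrogenase, rose by 1.13 as deposited and by 0.47 after subtraction, and GOT1, the cytosolic aspartate aminotransferase, fell by a log2 fold change of -0.79.

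In fatty acid activation and carnitine handling 5 of the 10 genes tested rose and 4 fell (30.7% and 26.2% over all rows tested), all on the grid. CROT, a peroxisomal carnitine acyltransferase, rose by 1.01 and ACSL1, an acyl-CoA synthetase, by 0.74, and ACSL1 overlapped between groups because adapted replicate 1 stayed at 3.47. ACSL4, a synthetase that prefers arachidonic acid, fell from 7.67, 7.60 and 7.53 to 6.12, 5.75 and 5.45 (log2 fold change -1.83 ± 0.16, SE; limma, adjusted p = 8.74e-05), and ACSL5 fell by a log2 fold change of -0.66. Among 12 other mitochondrial acyl-CoA genes 5 rose and 1 fell, with the thioesterases ACOT9 at 0.82 and ACOT2 at 0.67 and the carboxylase subunit PCCB at -0.41. In peroxisomal beta oxidation 4 of 10 genes rose and 1 fell, with DECR2, a dienoyl-CoA reductase, at 0.56, ABCD3, a peroxisomal transporter, at 0.50 and PECR, an enoyl-CoA reductase, at -0.32.

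Ketone body genes were divided, with 1 of 4 higher and 2 lower (30.7% and 26.2% over all rows tested). ACAT1, the acetoacetyl-CoA thiolase, rose by 1.06 as deposited and by 0.40 without its constant of 0.66, while BDH1, the mitochondrial hydroxybutyrate dehydrogenase, fell by a log2 fold change of -1.14. Of 8 transcriptional regulators of fatty acid oxidation, the nuclear receptor PPARD rose by 0.40, and the nuclear receptor PPARG and the coactivator PPRC1 fell by log2 fold changes of -0.80 and -0.32. Of 13 mitochondrially encoded subunits of the respiratory chain, 7 rose and none fell, against the same backgrounds, with MT-ND1 and MT-ND3, subunits of complex I, at log2 fold changes of 0.83 and 0.80.

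**Figure D5:**
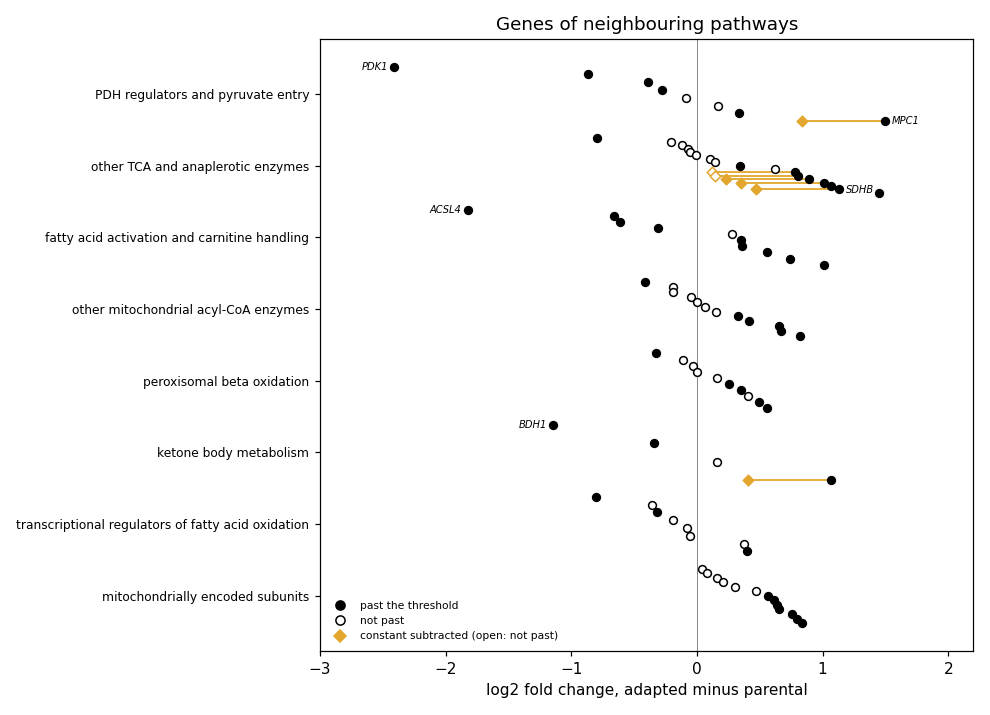
Log2 fold change, adapted minus parental (x axis), of the tested genes of 8 neighbouring lists (rows), filled where past the limma threshold and open where not, with diamonds for values after subtraction of a constant. PDK1 lies farthest to the left at -2.41 and MPC1 farthest to the right at 1.499, or 0.84 without its constant.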

How the data were processed

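RNA of 3 parental and 3 adapted H1975 samples was sequenced. The authors deposited 1 table of log2 values, with 27216 rows and 1 column per sample, and columns were matched to samples by group and replicate number. The unit is not named, and log2(FPKM + 1) was assumed. The submitters' processing notes list STAR, Bowtie2 2.1.0, edgeR and hg38 with no role, and the methods of the study name DESeq2, which needs counts. limma 3.58.1 (R 4.3.3; lmFit, eBayes with trend) was therefore fitted to all 12656 rows with a mean of at least 1, unpaired, and genes with a Benjamini-Hochberg adjusted p under 0.05 were called. Depth is unknown.

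A value was called on the grid where 2 to its power, minus 1, was within 0.001 millionths of a number with 6 decimals. Pair ratios used exact permutation tests (SciPy 1.17.1). Promoters came from RefSeq (GRCh38.p14). In GENCODE release 29, exons of 19 of the 39 genes overlap those of another gene, 16 on the opposite strand, and 8 have named pseudogenes. The handling of strand and shared reads is not given in the sources used here, so reads of such genes cannot be told apart.

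Members and lists were chosen with earlier results of these data known. Named with values per sample were the entry enzymes CS, PDHA1, PC, CPT1A and CPT2, every gene off the grid, and in each pathway up to 5 genes that rose most and 5 that fell most, past the threshold without overlap. ECI2 was chosen after its values were seen, and MDH2 and HADHB were also given with values per sample outside this rule. In each further list up to 2 per direction were named, beside the genes that carry constants and beside MPC2 and PDP2. Some genes that this rule names are not reported here. The fit and the search for constants were tested on simulated data.

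Same-numbered replicates were not known to share a culture. Alternatives were another pseudocount, other filters, normalizations and limma settings, a replicate block, each replicate left out, unnamed transcripts left out, a threshold of 0.01, and off-grid rows left out or with constants subtracted.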

Additional observations from a re-analysis of the deposited data

How the results depend on the processing

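The off-grid rows moved the results most. With constants subtracted, 5 TCA genes rose, 1 fatty acid oxidation gene fell and the median of that pathway was 0.18, and with these rows left out 4 of 15 TCA genes rose, 1 of 7 fatty acid oxidation genes rose, 1 fell and the median was -0.090. That median was 0.82 with a pseudocount of 0.1 and 0.31 with a filter at a mean of 3, which removes CPT1A and other low genes. At a threshold of 0.01 a single fatty acid oxidation gene fell. Leaving out each replicate, with the values as deposited, gave 7 to 8 higher and 4 lower TCA genes with a median of 0.01 to 0.06. For fatty acid oxidation it gave 12 higher and 1 to 4 lower genes with a median of 0.69 to 0.77. The count of 1 came without parental replicate 2. These fits kept the constants, which 4 of the rising TCA genes and 11 of the 12 rising fatty acid oxidation genes carried. No replicate was left out with the constants subtracted, so the counts after subtraction were not tested in this way. With no filter on low values IDH2 was also called lower, which made 5 TCA genes. ECI1 was not past the threshold in 5 of these 6 fits. The direction turned in 4 genes that were never past the threshold. CS was at 0.0072 with quantile normalization, 0.0029 with equal sums and 0.042 with equal sums without mitochondrially encoded genes, where IDH3B was at 0.034, SUCLA2 at 0.022 and DECR1 at 0.025, and leaving out replicates gave -0.13 to 0.065 for CS, -0.13 to 0.064 for IDH3B, -0.073 to 0.056 for SUCLA2 and -0.12 to 0.079 for DECR1. That last rescaling set the all-row median at 0.07, up from 0.03, and the share of calls that were higher from 54% to 59.1%. The filter at 3 left 4532 of 7693 rows past the threshold. Deviations of same-numbered samples correlated at -0.05, -0.03 and -0.02, and those of differently numbered samples at -0.036 to 0.066. Such values cannot show whether same-numbered samples shared a culture or a batch. A replicate block gave 6761 rows past the threshold in place of 7202. This block, also fitted to the values as deposited, gave 8 TCA and 12 fatty acid oxidation genes higher and 4 and 3 lower. It changed no call among the 39. Count-based tests were not run on these log2 values, and low genes have an unknown counting error.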
